A study of Homo sapiens with 6 samples.

Results

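The 3 human PIM kinase genes PIM1, PIM2 and PIM3 were followed together with FGD2 and TMEM217, the genes that lie next to PIM1 on chromosome 6, through inhibition of JAK kinases in a leukaemia cell line. The members were taken by name, with earlier results of these arrays known, and all 5 were found among the 33616 genes of the array table. Each had 1 transcript cluster, a set of probes for 1 transcribed locus, and no cluster with several gene symbols named any of them. By the cell line field, the cells were MHH-cALL4, an established human line from B-cell precursor leukaemia of the Ph-like type. That type has an expression profile that resembles that of Philadelphia-positive leukaemia. The cells were grown in RPMI medium with serum and antibiotics. One group of 3 arrays came from cells given the DMSO vehicle for 12 h, and the other group of 3 arrays from cells given 1 µM ruxolitinib, an inhibitor of JAK1 and JAK2, for 12 h. The comparison addresses the response of transcript levels to the JAK inhibitor. The labels give no genotype difference between the groups. The cell line field has MHH-cALL4 and was followed here, but the titles of all ruxolitinib arrays name MHH-cALL5. If those titles were right, cell line and drug could not be told apart. No label states that the replicates are separate cultures, and the p-values then cover only the spread between these arrays, which may be technical.

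PIM kinases are serine/threonine kinases that promote survival and growth of blood cells. They have no regulatory domain that must be switched on, so the amount of protein largely sets their activity, and that amount depends strongly on transcription. Cytokine receptors raise PIM1 and PIM2 transcription through JAK kinases and STAT5, and the PIM1 gene is known from mouse lymphomas as a site where retroviruses insert. FGD2 encodes an exchange factor that activates the small GTPase CDC42, and TMEM217 encodes a membrane protein.

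The starts of 4 of the 5 genes had 5 sequences in the RefSeq promoter table (assembly GRCh38.p14), each with 250 bases before and 50 bases after the start. One sequence each is shown for PIM1 and TMEM217, whose signals both fell, and for PIM2 and PIM3, whose changes did not pass the test, so that the starts can be set side by side. Capitals mark the GC box (GGGCGG or its reverse complement CCGCCC) and the octamer (ATGCAAAT or its reverse complement ATTTGCAT), and no marked motifs overlap.
PIM1, chr6:37169902-37170201, + strand: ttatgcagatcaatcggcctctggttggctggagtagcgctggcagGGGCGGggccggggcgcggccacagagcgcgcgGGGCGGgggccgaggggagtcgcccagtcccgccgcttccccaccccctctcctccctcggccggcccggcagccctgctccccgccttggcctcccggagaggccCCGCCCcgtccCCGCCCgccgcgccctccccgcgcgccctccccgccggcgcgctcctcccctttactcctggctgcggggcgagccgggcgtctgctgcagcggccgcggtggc
TMEM217, chr6:37258095-37258394, - strand: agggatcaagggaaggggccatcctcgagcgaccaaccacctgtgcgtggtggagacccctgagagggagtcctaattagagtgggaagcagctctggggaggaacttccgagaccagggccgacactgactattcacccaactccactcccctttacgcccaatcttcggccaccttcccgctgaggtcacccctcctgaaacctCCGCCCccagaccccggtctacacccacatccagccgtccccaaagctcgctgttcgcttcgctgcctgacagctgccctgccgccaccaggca
PIM2, chrX:48918975-48919274, - strand: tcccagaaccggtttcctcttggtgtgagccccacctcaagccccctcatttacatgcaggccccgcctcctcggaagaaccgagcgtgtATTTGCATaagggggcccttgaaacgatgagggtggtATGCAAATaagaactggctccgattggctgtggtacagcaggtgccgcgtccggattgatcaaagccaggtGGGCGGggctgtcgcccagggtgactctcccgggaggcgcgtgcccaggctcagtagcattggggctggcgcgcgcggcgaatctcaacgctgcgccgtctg
PIM3, chr22:49960522-49960821, + strand: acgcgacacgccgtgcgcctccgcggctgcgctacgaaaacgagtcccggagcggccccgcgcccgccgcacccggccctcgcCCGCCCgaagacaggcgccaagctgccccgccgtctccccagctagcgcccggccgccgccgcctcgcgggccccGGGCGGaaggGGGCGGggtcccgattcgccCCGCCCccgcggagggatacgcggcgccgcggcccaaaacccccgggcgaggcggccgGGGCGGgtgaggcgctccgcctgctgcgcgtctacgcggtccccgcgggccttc

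A STAT-type motif, TTCNNNGAA, which is its own reverse complement, was in 0 of these windows and in 0 of the second TMEM217 window, against 7.66% of the 35116 promoters in the table. There were 4 GC boxes at PIM1, 5 at PIM3, 1 at PIM2, 1 in the TMEM217 window shown and 0 in the other. Of all promoters 45.0% held at least 1. PIM2 held 2 octamers, which begin 160 and 123 bases before the start, and 1.77% of all promoters held 1 or more. The GC content was 79.7% at PIM1 and 81.3% at PIM3 against 62.3% at PIM2 and 62.7% in the TMEM217 window shown, with a median of 58.7% over all promoters. These matches describe the letters of the windows, and sequence outside them was not examined.

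The arrays gave deposited log2 signals with a median over all rows of 4.51 to 4.59. B-lineage identity was seen in all 9 measured B-lineage markers, among them PAX5, EBF1, CD79A and DNTT, whose group means lay between 11.7 and 19.6 on the log2 scale. The 13 markers of T cells, natural killer cells, myeloid cells, red cells, liver and fibroblasts lay between 3.19 and 8.95, and their mean level on the 6 arrays was 5.24 to 5.49. Of these 13, 0 passed the test in either direction (limma; unadjusted, 1 was lower and 0 were higher at p under 0.05), and the 9 B-lineage markers gave 0 calls as well (limma; unadjusted, 0 lower and 3 higher). DMSO replicate 1 and ruxolitinib replicate 3 scored highest on the second principal component (0.55 and 0.48, 29.8% of the variance). DMSO replicate 2 scored 0.12 there and the remaining arrays -0.43 to -0.33, so the scores alone do not form 2 groups. The first 2 also had the highest mean signal over 215 small RNA genes (rRNA, snRNA and snoRNA), 8.48 and 8.45 against 7.94 to 8.17. Below they are called the 2 arrays that stood apart. Each member's change is therefore given with and without these 2 arrays.

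PIM1 and its neighbours FGD2 and TMEM217 were lower with ruxolitinib, whereas the changes of PIM2 and PIM3 did not pass the test. PIM1, the first known member of the family and a kinase with BAD and CDKN1A among its substrates, had log2 signals of 13.44, 13.47 and 13.73 in DMSO replicates 1 to 3 and of 12.23, 12.21 and 12.10 in ruxolitinib replicates 1 to 3 (cluster TC0600007862.hg.1). The groups did not overlap, and the lowest DMSO array lay 1.21 above the highest ruxolitinib array. The mean was 13.55 ± 0.16 in DMSO and 12.18 ± 0.07 in ruxolitinib (SD, n = 3 each), a log2 change of -1.37 ± 0.17 (SE) with a 95% interval of -1.75 to -0.99, or a 2.58-fold lower signal. This passed the test over all genes (limma, adjusted p = 0.00295). Among all genes its change ranked 120 from the lowest and its p ranked 70. In RNA from whole cultures, fewer cells of a type and less RNA per cell cannot be told apart.

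Of all 33616 genes 1.14% passed an adjusted p under 0.05, 1.04% as lower and 0.101% as higher. The groups did not overlap for 9.03% of genes with the lower signal in ruxolitinib and for 5.14% with the higher signal. Among the 5 members 3 were lower, all 3 without overlap, and 0 were higher. The members were chosen with earlier results of these arrays known, so this count is no independent evidence. All 5 are protein-coding, and of protein-coding genes 1.85% were lower and 0.167% higher. Before adjustment 6.85% of all genes were lower and 2.68% higher at p under 0.05, and counts called unadjusted refer to that threshold. The spread of PIM1 within groups was small, with a pooled SD of 0.124 that exceeded that of 10.1% of genes. Its change without the 2 arrays that stood apart was -1.38 (adjusted p = 0.0126, limma), and it kept its call in 17 of 17 alternative fits, with an adjusted p between 0.000552 and 0.0363.

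PIM2, a family member prominent in lymphoid cells, had log2 signals of 8.99, 8.76 and 9.43 in DMSO and of 9.49, 9.05 and 8.10 in ruxolitinib, by replicate number (cluster TC0X00009637.hg.1). The highest and the lowest of the 6 signals were both in the ruxolitinib group, so the DMSO values lay inside the ruxolitinib range. The change was -0.18 ± 0.32 (SE), with a 95% interval of -0.87 to 0.51 (adjusted p = 0.948, limma). The interval holds falls and rises, so a level PIM2 was not shown. PIM2 varied more within groups than 97.4% of genes (pooled SD 0.558). Its change was 0.18 without DMSO replicate 1 and ruxolitinib replicate 3.

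PIM3, the third family member, had log2 signals of 5.98, 6.22 and 6.58 in DMSO and of 6.38, 6.50 and 5.69 in ruxolitinib (cluster TC2200007783.hg.1). The groups overlapped, and ruxolitinib replicate 3 was the lowest array, as it was for PIM2. The change was -0.07 ± 0.24 (SE), with a 95% interval of -0.60 to 0.47 (adjusted p = 0.980, limma), and 0.04 without the 2 arrays that stood apart. The median gene of the table had a level of 5.25. The signals of PIM2 and PIM3 moved alike over the 6 arrays (Pearson r = 0.847), while r was 0.296 between PIM1 and PIM2 and 0.229 between PIM1 and PIM3. After removal of the group means r was 0.846 between PIM2 and PIM3, 0.727 between PIM1 and PIM2 and 0.818 between PIM1 and PIM3. These are descriptions over 6 arrays, and the values share each array's overall signal.

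**Figure D1:**
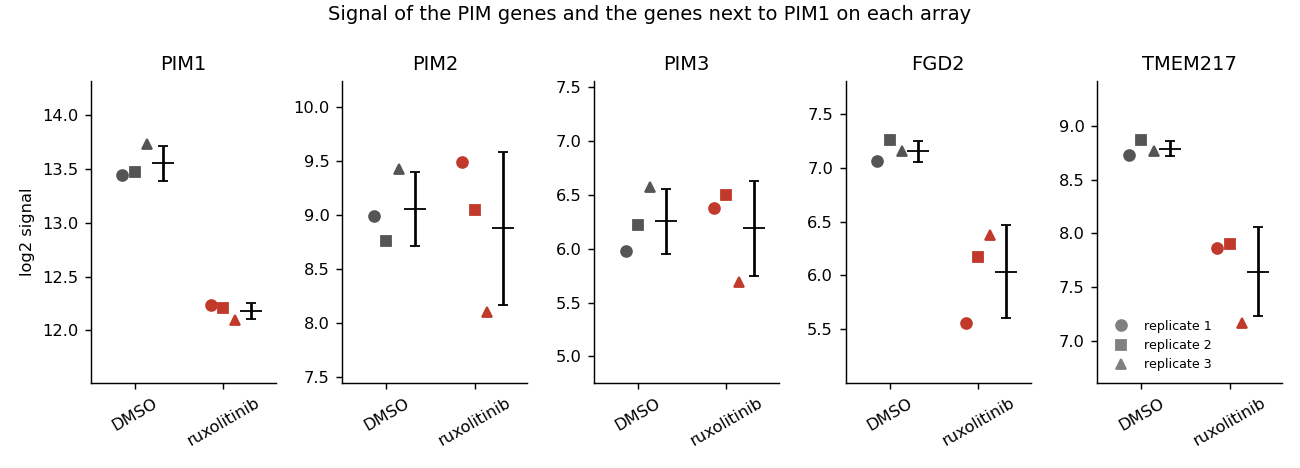
Log2 signal of the 5 genes on each array (vertical axis, each panel spanning 2.8 log2 units), with DMSO in grey and ruxolitinib in red, marker shape for the replicate number, and mean ± SD beside the points (n = 3). PIM1, FGD2 and TMEM217 have no overlap between groups, while for PIM2 and PIM3 the ruxolitinib points spread across the DMSO points and replicate 3 is lowest.

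FGD2, the CDC42 exchange factor gene on 1 side of PIM1, had log2 signals of 7.06, 7.25 and 7.15 in DMSO and of 5.55, 6.17 and 6.38 in ruxolitinib (cluster TC0600007855.hg.1). All 3 ruxolitinib arrays lay below all DMSO arrays, by at least 0.68, and replicate 1 was the lowest. The mean was 7.15 ± 0.10 in DMSO and 6.04 ± 0.43 in ruxolitinib (SD, n = 3 each). The log2 change was -1.12 ± 0.22 (SE), a 2.17-fold lower signal, and passed the test (adjusted p = 0.0378, limma). When 1 array at a time was left out, only the fit without ruxolitinib replicate 3 kept the call (adjusted p = 0.0267), and the highest adjusted p was 0.183 without DMSO replicate 2 (limma). It was also lost after quantile normalization (-1.04, adjusted p = 0.0618, limma) and kept without the 2 arrays that stood apart (-1.34, adjusted p = 0.0287, limma).

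TMEM217, on the other side of PIM1, had log2 signals of 8.73, 8.86 and 8.76 in DMSO and of 7.87, 7.91 and 7.16 in ruxolitinib (cluster TC0600011690.hg.1). The groups were separated by 0.83, and replicate 3 was the lowest ruxolitinib array. The mean was 8.79 ± 0.07 in DMSO and 7.65 ± 0.42 in ruxolitinib (SD, n = 3 each). The change was -1.14 ± 0.22 (SE), a 2.20-fold lower signal (adjusted p = 0.0312, limma). This call was lost whichever array was left out, with an adjusted p between 0.0515 and 0.158 (limma), and without the 2 arrays that stood apart (-0.93, adjusted p = 0.0780, limma). RefSeq gives TMEM217 the same span as TMEM217B and places the start of TBC1D22B inside that span on the opposite strand, so the signal of the TMEM217 cluster may be shared.

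The changes of the members were compared through the difference of their log2 signals on each array, in which the fixed offset between probe sets cancels between groups. There were 10 pairs, and an exact permutation test over the 20 regroupings of 6 arrays cannot give a two-sided p under 0.1. PIM1 minus PIM2 was 4.45, 4.72 and 4.30 in DMSO and 2.75, 3.16 and 3.999 in ruxolitinib, without overlap. Its change was -1.19 (exact permutation p = 0.1, adjusted p = 0.25 over the 10 pairs). PIM1 minus PIM3 changed by -1.30, from 7.29 ± 0.16 to 5.99 ± 0.37 (SD, n = 3), also without overlap and with the same exact p. PIM1 minus FGD2 changed by -0.25 (exact p = 0.5) and PIM1 minus TMEM217 by -0.23 (exact p = 0.3), both with overlapping groups and by less than the SD among the ruxolitinib arrays (0.49 and 0.35). FGD2 minus TMEM217 changed by 0.02 (exact p = 1.0), with an SD of 0.04 in DMSO and 0.77 in ruxolitinib. Within the ruxolitinib group the lowest array was replicate 1 for FGD2 and replicate 3 for TMEM217. In all, 4 of the 10 pairs had no overlap, each of them PIM1 or TMEM217 against PIM2 or PIM3, with changes of 0.96 for PIM2 minus TMEM217 and 1.07 for PIM3 minus TMEM217 (exact p = 0.1 each, adjusted p = 0.25).

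Beside PIM1, the measured genes next to it on both sides were lower, and the next measured genes beyond them did not pass the test. Among the 5 protein-coding genes on each side of PIM1, 9 of 10 were measured, 2 were lower (FGD2 and TMEM217) and 0 were higher (limma; unadjusted, 4 lower and 0 higher). The lower share was 22.2%, against 1.85% of protein-coding genes, and both lower genes are members chosen with earlier results known. MTCH1, a mitochondrial outer membrane gene beyond FGD2, had a log2 change of -0.12 ± 0.17 (SE, adjusted p = 0.925, limma). TBC1D22B, beyond TMEM217, had -0.54 ± 0.20 (adjusted p = 0.374, unadjusted p = 0.0215, limma), from 10.67 in DMSO to 10.13 in ruxolitinib. CDKN1A, the gene of the cell cycle inhibitor p21, lies 8 places before PIM1 in this order and fell from 12.21, 12.06 and 12.23 to 11.0003, 10.88 and 10.60 (log2 change -1.34, adjusted p = 0.00464, limma). The 5 genes between CDKN1A and MTCH1 (RAB44, CPNE5, PPIL1, C6orf89 and PI16) had changes of -0.72 to 0.23, and 0 of them passed (limma; unadjusted, PPIL1 alone was below 0.05).

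Of 10 measured neighbours of PIM2, 0 passed in either direction (limma; 0 also unadjusted). The nearest were SLC35A2, a transporter of UDP-galactose, at -0.25 ± 0.20, PQBP1 at -0.45 ± 0.21, the deubiquitinase gene OTUD5 at -0.30 ± 0.18 and the potassium channel gene KCND1 at -0.01 ± 0.20 (log2 change ± SE). Of 8 measured neighbours of PIM3, 0 passed (limma; unadjusted, 1 lower and 0 higher). That one was CRELD2, a gene of the endoplasmic reticulum, at -0.79 ± 0.27 (adjusted p = 0.305, limma), while ALG12, IL17REL and TTLL8 had changes of -0.07 ± 0.18, 0.16 ± 0.19 and -0.28 ± 0.23. Over the neighbours of all 3 genes the median log2 change was -0.15, against -0.06 for all protein-coding genes.

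**Figure D2:**
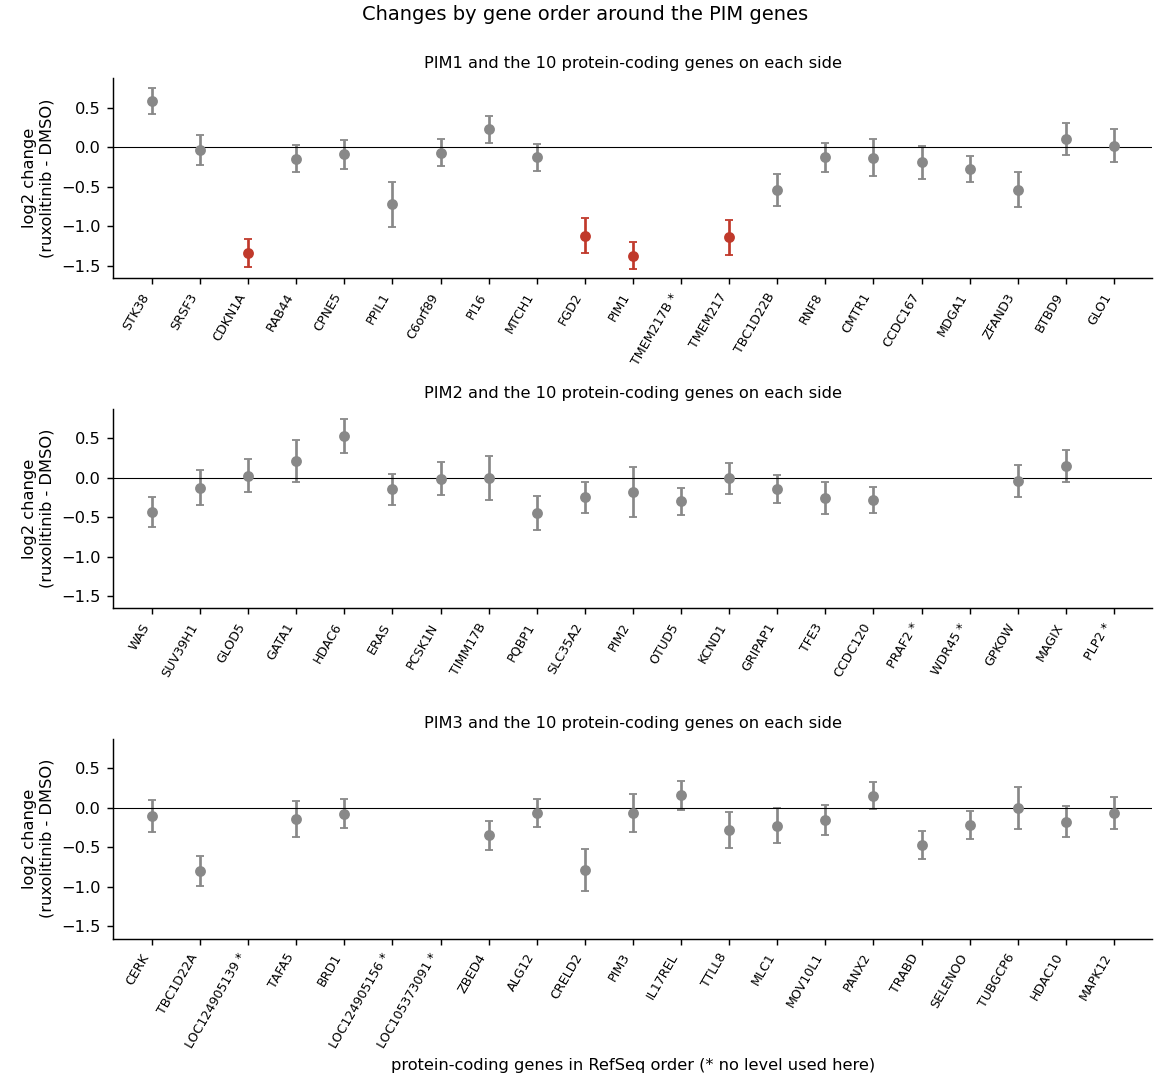
Log2 change (ruxolitinib minus DMSO, vertical axis, bars are standard errors) of PIM1, PIM2 and PIM3 and of the 10 protein-coding genes on each side in RefSeq order (horizontal axis). Red points passed an adjusted p under 0.05 as lower, grey points did not pass, and names with an asterisk have no level here. PIM1, FGD2, TMEM217 and, 8 places before, CDKN1A are red, and the PIM2 and PIM3 panels hold 0 red points.

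Placing every measured protein-coding gene in chromosome order gave 324 lower genes. For 282 of these 0 of the genes directly beside them were lower, for 40 one was, and for 2 both were. Those 2 were PIM1 and the cytokine gene TNF, whose neighbours are LTA and LTB. Over all 17579 genes placed, 620 had 1 lower gene directly beside them and 14 had lower genes on both sides. The count of 2 rests on the calls of FGD2, TMEM217, LTA and LTB. Each of these was lost in some or all fits that leave out 1 array. The count is a description of this list of calls with no test.

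Upstream of PIM1, transcripts of the receptor and JAK chain and of most transcriptional regulators did not pass the test. All 6 genes of the receptor chain (CRLF2, IL7R, JAK1, JAK2, JAK3 and TYK2) were measured, 0 passed (limma; unadjusted, 1 lower and 0 higher), and the list median was -0.09. The lowest was TYK2, a JAK family kinase, at -0.53 ± 0.22 (SE, adjusted p = 0.466, limma), followed by JAK3 at -0.22 ± 0.21. The drug's targets JAK2 and JAK1 were at -0.11 ± 0.22 and -0.06 ± 0.21, with -0.42 ± 0.45 in a second, slightly dimmer JAK2 cluster. CRLF2, the receptor chain for TSLP, was at 0.10 ± 0.17 and IL7R, which pairs with it, at 0.27 ± 0.27. Of 10 measured transcriptional regulators of PIM genes 1 rose and 0 fell, while of protein-coding genes 0.167% were higher and 1.85% lower. The list median was 0.17, against -0.06 for all protein-coding genes. ETS1, a lymphoid transcription factor, rose by 1.26 ± 0.21 (adjusted p = 0.0157, limma), from 11.57, 11.49 and 11.95 in DMSO to 12.65, 12.88 and 13.26 in ruxolitinib, and this call was kept in 3 of 6 fits that leave out 1 array. Leaving out DMSO replicate 1 or either replicate 2 ended it (adjusted p up to 0.106, limma). STAT3, a factor that cytokines activate, was at -0.62 ± 0.20 (adjusted p = 0.260, limma). The STAT5 genes went the other way without passing. STAT5A was at 0.39 ± 0.18 (adjusted p = 0.528, limma) and STAT5B at 0.35 ± 0.18 (adjusted p = 0.601, limma), with 0.09 in a second, dimmer STAT5B cluster. On the whole regulator list 4 changes were below 0 and 6 above.

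Beside PIM1, 7 of 15 known STAT5 target genes fell (46.7%, against 1.85% of protein-coding genes) and 2 rose (against 0.167%). Their median log2 change was -0.66 against -0.02 for all genes. The fall of PIM1 (-1.37) stood beside those of CISH, a feedback inhibitor of cytokine receptors (12.47, 12.61 and 12.10 in DMSO, 5.99, 5.88 and 5.75 in ruxolitinib), CCND2, which encodes cyclin D2 (-3.21), ID2 (-2.94) and SOCS2 (-1.98), the lymphotoxin genes LTB (-1.32) and LTA (-1.02), and SOCS1 (-1.22). BCL6, a transcriptional repressor, rose by 2.78, and the cyclin gene CCND3 rose by 1.18, with 0.70 in a second, dimmer cluster. The adjusted p of these 9 genes lay between 2.78e-08 for CISH and 0.0326 for CCND3 (limma), LTA lost its call in all 6 fits that leave out 1 array, LTB lost its call without either replicate 2 (adjusted p up to 0.0662), and SOCS1 and CCND3 kept theirs in 1. SOCS1 had a mean of 4.91 over the 6 arrays, below the median gene (5.25), and detection calls were not used. Differences in size between genes were not tested. Without DMSO replicate 2, and also without ruxolitinib replicate 2, the count of lower genes was 4. The count of higher genes was 1 without any of DMSO replicates 1 to 3 or ruxolitinib replicates 1 or 2. The members of this list were chosen with earlier results of these arrays known and are no independent evidence of direction.

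The genes whose signals were most like PIM1 over the 6 arrays were TNF (r = 0.999), PIK3R5, a regulatory subunit of phosphoinositide 3-kinase gamma (r = 0.998), SOCS2 (r = 0.998), PPRC1, a coactivator of mitochondrial genes (r = 0.997), and TXN, which encodes thioredoxin (r = 0.996). The first 4 were lower at an adjusted p under 0.05, with changes of -3.13, -1.75, -1.98 and -1.24, and TXN was at -0.49 (adjusted p = 0.298, limma). After removal of the group means their r with PIM1 lay between 0.889 and 0.950. For FGD2 and TMEM217, r with PIM1 was 0.882 and 0.931 over the 6 arrays, and -0.31 and 0.37 after removal of the group means.

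Genes most like PIM2 were PEX16, a peroxisome gene (r = 0.996), UBA52P5, a pseudogene whose signal may be shared with its parent gene (r = 0.996), the ribosomal protein gene RPL18 (r = 0.994), the mitotic gene CDC20 (r = 0.993) and NOSIP (r = 0.993). Those most like PIM3 were ZNF589 (r = 0.997), the pseudogene RPL34P26 (r = 0.992), the lysosomal membrane gene LAMP2 (r = 0.992), PDZD11 (r = 0.9905) and NFATC3 (r = 0.9903). Of these 10 genes, 0 passed the test in limma, where the smallest adjusted p was 0.915, and their changes lay between -0.24 for CDC20 and -0.02 for NFATC3. All r values are descriptions over 6 arrays. Because these genes were picked by their r with PIM2 or PIM3, the lack of calls follows largely from that choice.

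Downstream of the kinases, 4 of 36 measured genes for reported PIM substrates fell and 0 rose (limma; unadjusted, 7 lower and 5 higher). The lower share was 11.1% against 1.85% of protein-coding genes, and the list median was -0.07. Like the other lists, this one was chosen with earlier results of these arrays known, so its share is no independent evidence. The lower substrates are named here. These were MYC, a growth transcription factor (-1.54 ± 0.22, from 13.57, 13.68 and 13.82 to 12.63, 11.93 and 11.89), CDKN1A, SOCS1 (-1.22 ± 0.22, from 5.47, 5.20 and 5.89 to 4.17, 4.11 and 4.62) and the hexokinase gene HK2 (-1.18 ± 0.25, from 7.12, 7.77 and 8.10 to 6.27, 6.54 and 6.65). SOCS1 is also on the STAT5 target list. Its mean over the 6 arrays (4.91) lay below that of the median gene (5.25), with 5.52 in DMSO and 4.30 in ruxolitinib. In a fit of only genes above the median mean, 3 substrates and 6 STAT5 targets were lower. CDKN1A kept its call in 6 of 6 fits that leave out 1 array, MYC in 5, and SOCS1 and HK2 in 1 each. The count of lower substrates was 2 without DMSO replicate 2 or DMSO replicate 3 and 1 without ruxolitinib replicate 2.

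BAD, which PIM kinases phosphorylate to block its action in cell death, was at 6.58 in DMSO and 6.63 in ruxolitinib (log2 change 0.06 ± 0.23). CDKN1B, the gene of the inhibitor p27, was at 11.17 and 11.34 (0.17 ± 0.20). EIF4EBP1, a repressor of translation, was at 12.47 and 11.56 (-0.90 ± 0.23, adjusted p = 0.107, limma), and MDM2, the ubiquitin ligase of p53, at 15.09 and 15.76 (0.67 ± 0.19, adjusted p = 0.180, limma). These 4 did not pass the test. Transcript levels say nothing of the phosphorylation of these proteins.

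**Figure D3:**
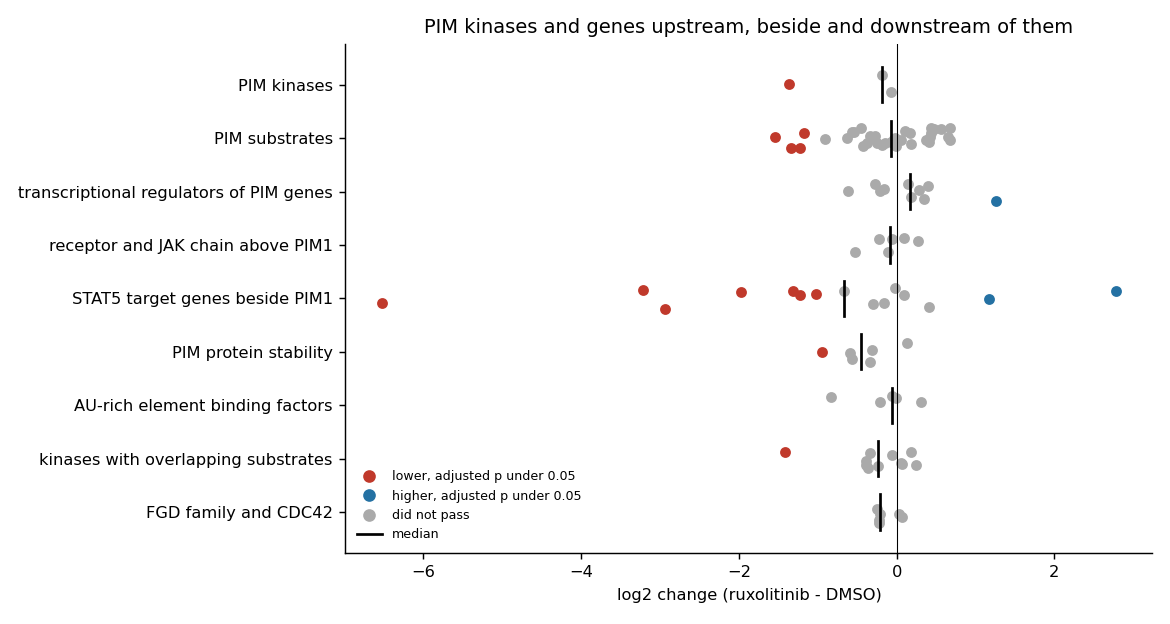
Log2 change (ruxolitinib minus DMSO, horizontal axis) of the 3 PIM kinase genes and of the members of each gene list (rows), with 1 point per gene and a black line at the list median. Red and blue points passed as lower and higher at an adjusted p under 0.05. PIM1 sits at -1.37 apart from PIM2 and PIM3, and the STAT5 targets run from -6.52 for CISH to 2.78 for BCL6.

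PIM proteins are short-lived, depend on the chaperone HSP90 and are removed with the help of the phosphatase PP2A. Of 6 measured HSP90 and PP2A genes 1 fell (16.7%, against 1.85% of protein-coding genes) and 0 rose. Unadjusted, 3 were lower and 0 higher (limma). The list median was -0.45, against -0.06 for all protein-coding genes. HSP90AB1, a cytosolic HSP90, fell from 16.86, 17.07 and 17.17 to 16.18, 16.07 and 15.99 (log2 change -0.95 ± 0.17, SE, adjusted p = 0.0260, limma), and its call was kept in 1 of 6 fits that leave out 1 array (adjusted p up to 0.137). The fit that kept it left out DMSO replicate 1. Of 5 measured factors that bind AU-rich elements, sequences in short-lived mRNAs such as that of PIM1, 0 passed (limma; unadjusted, 1 lower and 0 higher). The one was ZFP36L1, an mRNA decay factor, at -0.83 ± 0.26 (adjusted p = 0.219, limma), and ZFP36L2, ELAVL1 and HNRNPD were at 0.32, -0.21 and -0.06.

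Among 11 measured kinases of the AKT, SGK and ribosomal S6 kinase families, which share substrates with PIM kinases, 1 fell and 0 rose. The lower share was 9.09%, against 1.85% of protein-coding genes, and the median was -0.24, against -0.06. RPS6KA2, a ribosomal S6 kinase, fell by 1.41 (SE 0.21, adjusted p = 0.00791, limma), from 7.27, 7.53 and 7.61 to 5.75, 6.03 and 6.41, and kept its call in 4 of 6 fits that leave out 1 array, with an adjusted p up to 0.0661 without either replicate 2. FGD2 was the only gene of its family past the threshold. FGD1, FGD3, FGD4, FGD5, FGD6 and CDC42 had changes of -0.24 to 0.07, and 0 of these 6 passed (limma; 0 also unadjusted).

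**Figure D4:**
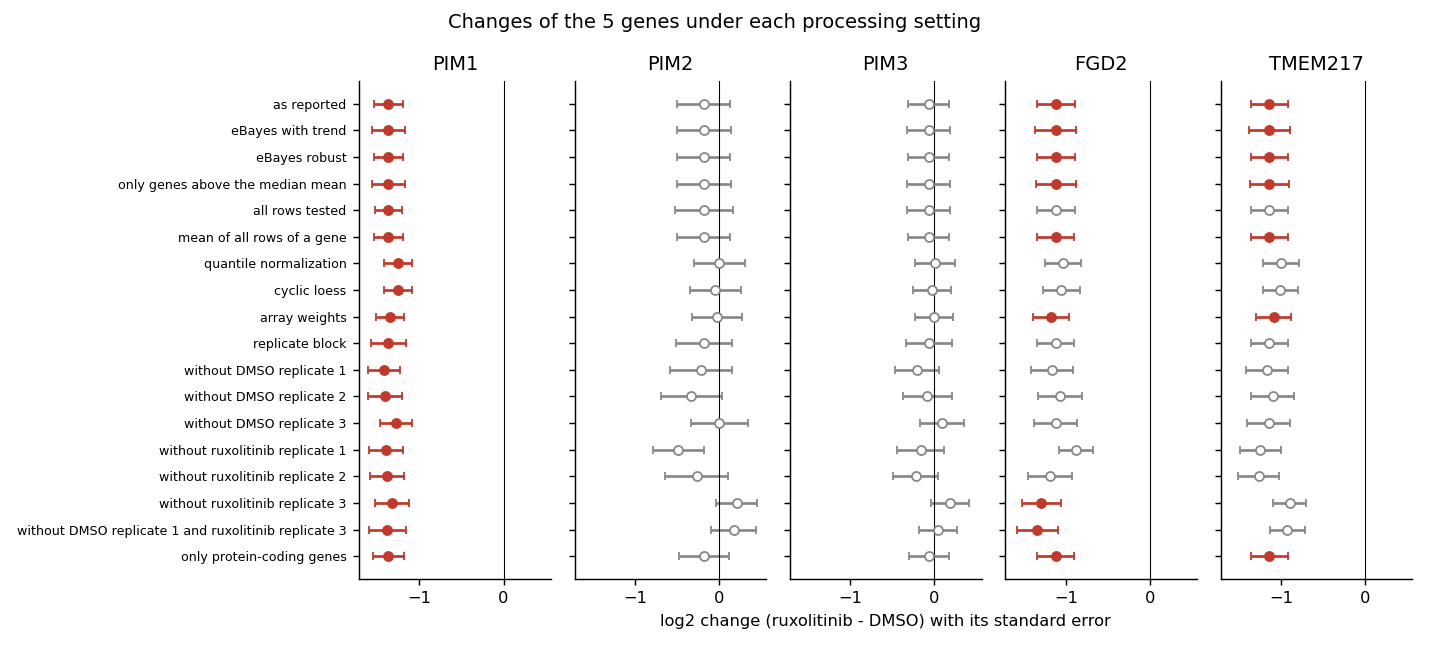
Log2 change with its standard error (horizontal axis) of the 5 genes under the reported fit and each alternative (rows), with filled red points for an adjusted p under 0.05 and open grey points otherwise. PIM1 is red in all rows between -1.42 and -1.26, FGD2 and TMEM217 are lower in all rows and red in some, and PIM2 and PIM3 lie around 0.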

How the data were processed

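Biotinylated cRNA made from the RNA of 6 samples was measured on Affymetrix arrays. Tools named in the submitters' processing notes are Expression Console and Transcriptome Analysis Console, both of Affymetrix, and RMA, with no versions or order. The authors deposited log2 signals per transcript cluster, a unit read from their range of 1.99 to 19.9. The clusters' genome build is not given in the sources used here, and detection calls were not used. Arrays have no read depth, so their number limits the precision.

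Of 135750 rows, 36176 had exactly 1 gene symbol in the platform annotation, 1119 several and 98455 none. A RefSeq table (GRCh38.p14) updated symbols by Entrez identifier and matched 25516 rows. The row with the highest mean stood for each of 33616 genes. Groups were compared with limma 3.58.1 under R 4.3.3, without covariates, in two-sided moderated tests with Benjamini-Hochberg adjustment over all genes and a threshold of 0.05. The fit was tested on simulated data. Gene order and promoter sequences came from RefSeq, and its coordinates are printed only for those sequences.

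The members and gene lists were chosen with earlier results of these data known. Named were the members, list genes past the threshold (in lists with none, up to 4 of smallest adjusted p), genes within 2 places of a PIM gene, and the 5 genes of highest r with each PIM gene among genes above the median level whose symbols are not those of uncharacterised loci, non-coding RNA classes, olfactory receptors or open reading frames. TBC1D22B, JAK1, JAK2, STAT3, STAT5A, STAT5B, BAD, CDKN1B, EIF4EBP1, MDM2, FGD3, FGD4, the genes between CDKN1A and MTCH1 and the 4 B-lineage markers named lie outside it, picked with their values in view. List counts carry no set test. Alternatives covered the spread model, filters, the rows used, scaling, array weights, the replicate number and arrays left out. The GC box and octamer, the alternatives for pairs of members and the count of lower neighbours were added after seeing the data.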

Additional observations from a re-analysis of the deposited data

How the results depend on the processing

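PIM1 kept its call under all 17 alternatives, FGD2 under 8 and TMEM217 under 6, each with its direction under all 17, and PIM2 and PIM3 were called under 0 of 17. With 1 array left out, the log2 change ran from -1.42 to -1.28 for PIM1, -0.48 to 0.21 for PIM2, -0.22 to 0.18 for PIM3, -1.29 to -0.88 for FGD2 and -1.27 to -0.90 for TMEM217. PIM2 turned to 0.0018 and PIM3 to 0.0051 after quantile normalization, and to 0.18 and 0.04 without DMSO replicate 1 and ruxolitinib replicate 3, a fit in which FGD2 was at -1.34. PIM2 also turned to 0.0054, and PIM3 to 0.09, without DMSO replicate 3. FGD2 and TMEM217 lost their calls with all rows tested, among which more tests are adjusted for (-1.12, adjusted p = 0.250, and -1.14, adjusted p = 0.221), after quantile normalization (-1.04 and -1.004), after cyclic loess (-1.05 and -1.01), and with a replicate block (-1.12 and -1.14, both with adjusted p = 0.0906, limma). TMEM217 also lost its call without DMSO replicate 1 and ruxolitinib replicate 3 (-0.93). The fit of all rows also gave larger standard errors for FGD2 (0.228 against 0.222) and TMEM217 (0.223 against 0.218). The cause of these losses was not tested.

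Same-numbered deviations from the group means correlated between -0.396 and -0.0847. Deviations within a group of 3 arrays balance each other, so these values cannot decide whether same-numbered arrays were paired. With the replicate block 116 genes were lower and 6 higher in all, and the members' counts were 1 higher STAT5 target, 0 lower HSP90 and PP2A genes and 0 lower neighbours. With all rows tested the counts were 1 lower substrate, 0 higher regulators, 4 lower and 1 higher STAT5 targets, and 0 lower in the HSP90 and PP2A, overlapping kinase and neighbour lists. After quantile normalization and after cyclic loess 0 neighbours were lower. Without DMSO replicate 1 and ruxolitinib replicate 3 the counts were 4 lower substrates, 6 lower and 2 higher STAT5 targets, 1 lower overlapping kinase, 0 higher regulators, 0 lower HSP90 and PP2A genes and 1 lower neighbour (FGD2). With 1 array left out, 1 to 3 substrates were lower, 4 to 6 STAT5 targets lower and 1 to 2 higher, and 0 to 1 was called in the regulator, HSP90 and PP2A, overlapping kinase and neighbour lists. Over all genes, 98 to 280 were then lower and 3 to 28 higher, against 350 and 34 with all arrays. Quantile normalization gave 220 lower and 56 higher genes, cyclic loess 59 higher, and a test of protein-coding genes alone 533 lower and 64 higher. No scaling moved the median log2 change of all genes by more than 0.1.

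The change of FGD2 minus TMEM217 (0.02) turned to -0.033 after quantile normalization, -0.043 after cyclic loess and -0.41 without both arrays that stood apart, and ran from -0.39 to 0.37 with 1 array left out. The change of PIM2 minus PIM3 (-0.11) turned to 0.13 without both arrays and ran from -0.32 to 0.03 with 1 left out. The other 8 pairs kept their direction under every alternative run for pairs. The narrower STAT motif TTCCNGGAA was in 1.15% of promoters and in 0 of the members' windows. With 3 arrays a group, changes had a median standard error of 0.200 on the log2 scale, which limits what can be resolved.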
